A study of Homo sapiens with 4 samples.

Results

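The 38 genes described here are the enzymes that build cholesterol from acetyl-CoA, the proteins that switch those enzymes on or off, carriers and storage enzymes of cholesterol, the liver X receptors (LXR) with their targets, and 4 genes of fatty acid synthesis. They were chosen by gene name from a fixed list and are 38 of the 50868 genes in the deposited tables, and 34 of them had a mean of at least 1 FPKM over the libraries, a unit in which fragments are counted relative to the length of a gene's exons and to the size of the library. RNA-seq had been done on Jurkat cells, an immortalised human T cell line, after 24 h with DMSO, which is the solvent control, 0.5 µM JQ1, DMSO with 150 ng/ml PHA, or 0.5 µM JQ1 with 150 ng/ml PHA. JQ1 blocks the bromodomains of the BET proteins, and PHA (phytohemagglutinin) is a plant lectin that activates T cells. There was 1 library per condition and 4 in all, so no difference below has a replicate check and none was tested between conditions. Jurkat is a single line derived from a T cell leukemia, so it stands in for T cells only as far as such a line does.

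Cells make cholesterol when the sterol content of their membranes is low. SCAP then carries the SREBP transcription factors, encoded by SREBF1 and SREBF2, out of the endoplasmic reticulum to be cut, and the released factor switches on the genes of the pathway, while the INSIG proteins hold SCAP back when sterol is plentiful. Oxidised sterols activate LXR, which induces the export pumps ABCA1 and ABCG1, SREBF1, and MYLIP, a ubiquitin ligase that lowers uptake of lipoprotein cholesterol. Dividing T cells need both sterols and fatty acids for new membrane.

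Many promoters of the pathway hold a CCAAT box, the site of NF-Y, which is known to act beside SREBP. The windows of 300 bases, from 250 before to 50 after the annotated start, are RefSeq sequences of GRCh38.p14 and were given for 33 of the 38 genes. The start on which a window is built lay within 1000 bases of the 5′ end of the deposited gene for 27 of them. It lay 4475 bases inside the deposited gene for DHCR7, 1185 bases inside for SCAP, and farther inside than both for NR1H2, ACLY and CYP51A1. For IDI1 it lay 7534 bases upstream of the deposited gene, so the window of IDI1 may not belong to the transcript counted. Windows are shown for 4 enzymes that fell with JQ1 and hold CCAAT, for LBR, an enzyme of the pathway that was higher and holds none, for the LXR target ABCA1, and for SREBF2. Capitals mark CCAAT on either strand and, in SREBF2, also the SREBP site TCACNCCAC. The windows lie at chr5:43313363-43313662 on the minus strand (HMGCS1), chr1:155308616-155308915 on the plus strand (FDPS), chr4:165327419-165327718 on the plus strand (MSMO1), chr11:71448344-71448643 on the minus strand (DHCR7), chr1:225428772-225429071 on the minus strand (LBR), chr9:104928106-104928405 on the minus strand (ABCA1) and chr22:41832855-41833154 on the plus strand (SREBF2).
HMGCS1: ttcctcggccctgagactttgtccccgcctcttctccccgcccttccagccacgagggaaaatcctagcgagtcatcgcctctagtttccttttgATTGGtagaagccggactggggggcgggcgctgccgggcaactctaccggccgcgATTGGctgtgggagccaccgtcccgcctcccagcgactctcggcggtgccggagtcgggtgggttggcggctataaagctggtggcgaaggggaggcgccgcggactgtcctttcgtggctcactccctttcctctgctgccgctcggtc
FDPS: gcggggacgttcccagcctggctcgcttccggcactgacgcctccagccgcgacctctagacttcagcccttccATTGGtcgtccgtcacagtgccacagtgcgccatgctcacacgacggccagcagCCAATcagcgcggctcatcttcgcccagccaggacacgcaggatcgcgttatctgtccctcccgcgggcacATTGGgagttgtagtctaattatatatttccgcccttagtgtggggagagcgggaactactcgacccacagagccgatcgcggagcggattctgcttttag
MSMO1: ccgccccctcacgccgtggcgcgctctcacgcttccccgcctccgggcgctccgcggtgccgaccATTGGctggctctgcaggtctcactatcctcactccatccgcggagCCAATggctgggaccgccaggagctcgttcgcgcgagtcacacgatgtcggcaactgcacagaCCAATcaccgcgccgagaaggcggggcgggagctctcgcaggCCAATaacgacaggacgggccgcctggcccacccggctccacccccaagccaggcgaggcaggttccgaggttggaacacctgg
DHCR7: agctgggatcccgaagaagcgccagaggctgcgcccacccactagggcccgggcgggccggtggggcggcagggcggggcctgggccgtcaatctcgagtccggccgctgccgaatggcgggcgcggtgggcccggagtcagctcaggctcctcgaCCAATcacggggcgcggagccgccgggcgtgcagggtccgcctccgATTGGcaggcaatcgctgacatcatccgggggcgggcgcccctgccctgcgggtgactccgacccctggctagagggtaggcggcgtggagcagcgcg
LBR: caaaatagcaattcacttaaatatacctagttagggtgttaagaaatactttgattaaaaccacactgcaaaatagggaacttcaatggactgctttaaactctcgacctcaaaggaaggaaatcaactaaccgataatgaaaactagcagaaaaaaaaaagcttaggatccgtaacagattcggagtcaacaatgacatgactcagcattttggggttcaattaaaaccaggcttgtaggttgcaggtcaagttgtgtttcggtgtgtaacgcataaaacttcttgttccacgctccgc
ABCA1: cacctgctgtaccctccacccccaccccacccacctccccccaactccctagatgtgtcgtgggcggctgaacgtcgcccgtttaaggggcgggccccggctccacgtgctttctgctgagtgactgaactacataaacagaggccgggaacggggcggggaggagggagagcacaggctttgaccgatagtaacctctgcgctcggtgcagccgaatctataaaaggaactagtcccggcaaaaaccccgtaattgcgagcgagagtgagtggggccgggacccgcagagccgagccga
SREBF2: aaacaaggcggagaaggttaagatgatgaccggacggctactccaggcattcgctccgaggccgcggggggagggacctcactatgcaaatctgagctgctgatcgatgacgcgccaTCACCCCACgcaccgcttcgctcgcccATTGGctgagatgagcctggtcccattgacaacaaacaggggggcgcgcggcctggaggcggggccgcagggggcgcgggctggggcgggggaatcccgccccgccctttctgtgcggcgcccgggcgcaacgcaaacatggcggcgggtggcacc

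CCAAT was found on either strand in 12 of the 17 windows of sterol enzymes (70.6%), and in 38.2% of the 7630 windows of genes that passed the filter of 1 FPKM. At least 2 CCAAT boxes were in 9 of the 17 windows (52.9%) and in 14.8% of the background. MVK and NSDHL had the most with 5 each, and MSMO1 had 4. IDI1, PMVK, GGPS1, CYP51A1 and LBR had none. The SREBP site was in the window of SREBF2 and in no window of a sterol enzyme, and it was in 1.09% of the background windows. The LXR direct repeat, written as AGGTCA, 4 free bases and AGGTCA, was in none of the 33 windows and in 0.0183% of all 27305 windows. It was also in none of the 7630 background windows, so its absence does not set the members apart. The GC box GGGCGG, known to bind Sp1, was in 14 of the 17 enzyme windows (82.4%) and in 71.8% of the background. These are matches of letters in a short window, on both strands and with overlaps allowed. Only these spellings were searched, so a window without a match may still hold a site for the same factor.

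The labels were checked with genes known to respond to each agent. HEXIM1, a gene known to rise under BET inhibition, had 36.2 FPKM in the DMSO library and 108.5 with JQ1, and 34.6 and 104.3 with PHA present. CD69 and EGR1, genes of T cell activation, were at 1.05 and 0.49 FPKM with DMSO and at 20.4 and 39.9 with DMSO + PHA. In the JQ1 library they were at 0.77 and 0.40 FPKM and in the JQ1 + PHA library at 3.14 and 6.85, so both were higher with PHA under JQ1 too, and 6.49-fold and 5.83-fold lower there than with DMSO + PHA. All 8 T cell markers looked up were at 1.30 FPKM or more in every library. Of these, CD3E, CD2 and LCK were past 2-fold lower in both JQ1 comparisons and CD247 in that with PHA. CD3D, CD3G and CD7 were lower by less in both, and PTPRC was at 70.7 and 122.6 FPKM in the DMSO and DMSO + PHA libraries and at 112.4 and 104.3 in the matching JQ1 libraries. The summed FPKM of 4 myeloid markers was at most 0.155 and that of 2 liver markers at most 0.0132. Of the B cell markers, MS4A1 was at or near 0 in every library, and CD79A was at 7.48 FPKM in DMSO, 1.06 in JQ1, 6.33 in DMSO + PHA and 1.01 in JQ1 + PHA, whose part in the results below was not tested. Library totals lay between 18620954 and 19685401 counts, and 3 counts, the floor used here, are 0.152 to 0.161 CPM (counts scaled to a common library size).

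The levels of the genes, which FPKM gives per length of transcript, ranged over several orders of magnitude. SCD, which puts the first double bond into fatty acids, was the most abundant with a mean of 188.7 FPKM and rank 94 of the 11503 genes that passed the filter. INSIG1 followed with 64.8 FPKM, then IDI1 with 56.9, LBR with 50.6, HMGCS1 with 47.7 and ACLY with 43.2. At the other end, 4 genes did not pass, namely CYP51A1 with a mean of 0.0222 FPKM, ABCA1 with 0.15, NR1H3 with 0.368 and TM7SF2 with 0.988. Another gene overlaps CYP51A1 on the same strand, so the value for CYP51A1 may not be its true level. TM7SF2 thus lay just under the limit and MVK, with 1.61 FPKM, above it.

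**Figure D1:**
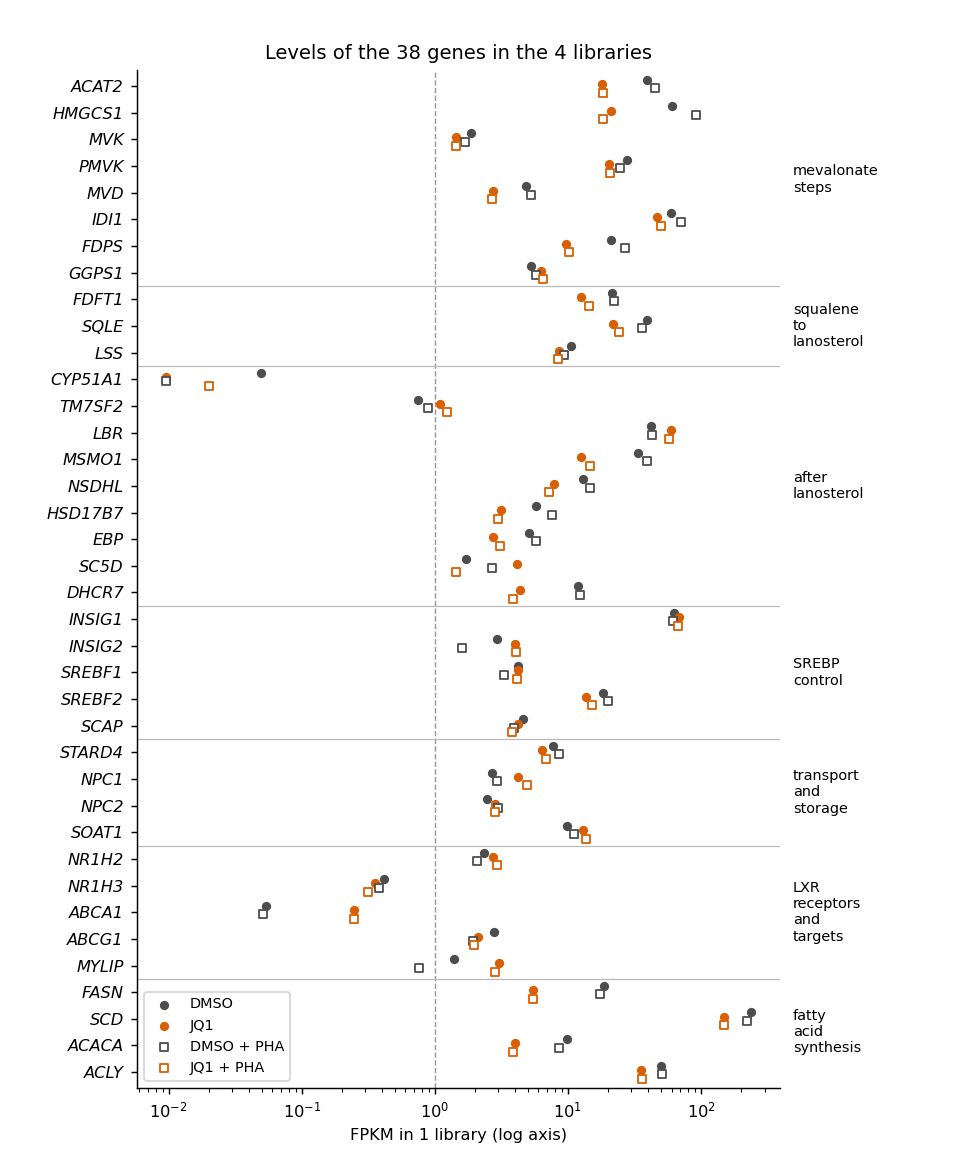
FPKM of each of the 38 genes (x axis, log scale) in the 4 libraries, in the order of the pathway from top to bottom, with 1 point per library and the 1 FPKM filter as a dashed line. SCD lies to the right of all other genes, CYP51A1 and ABCA1 lie to the left, and for most enzymes the filled and open orange points of the JQ1 libraries lie together, to the left of both DMSO points.

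The first question was how the pathway stood in Jurkat cells after JQ1. In the absence of PHA, 7 of the 34 genes that passed were at least 2-fold lower (20.6%), where 8.65% of all genes tested were. These were the sterol enzymes ACAT2, HMGCS1, FDPS, MSMO1 and DHCR7 and the fatty acid enzymes FASN and ACACA. At least 2-fold higher were 2 genes, SC5D and MYLIP (5.88%), beside 5.22% of all genes, and none was with a pseudocount of 1 or with a mean of at least 5 FPKM required. With PHA present, 8 of 34 were lower (23.5%, beside 8.0% of all genes), namely the same 7 and HSD17B7, and 2 were higher, INSIG2 and MYLIP (beside 3.69% of all genes), of which 1 was left with a pseudocount of 1 and none with a mean of at least 5 FPKM. The 7 genes lower in both comparisons are 20.6% of the 34, and 5.42% of all genes were lower in both. As whole cultures were measured, fewer cells of a kind and less RNA per cell cannot be told apart.

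The median log2 ratio of FPKM, with 0.1 added to each value, was -0.41 over the 34 genes with JQ1 alone and -0.45 with JQ1 + PHA, and over all genes tested it was -0.01 and -0.02. The direction was the same in both comparisons for 31 of the 34 genes. These comparisons share no library. Over the 34 genes the Pearson correlation of both ratios was 0.84, and over all genes tested it was 0.74, as a description across genes, which are not independent replicates.

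**Figure D2:**
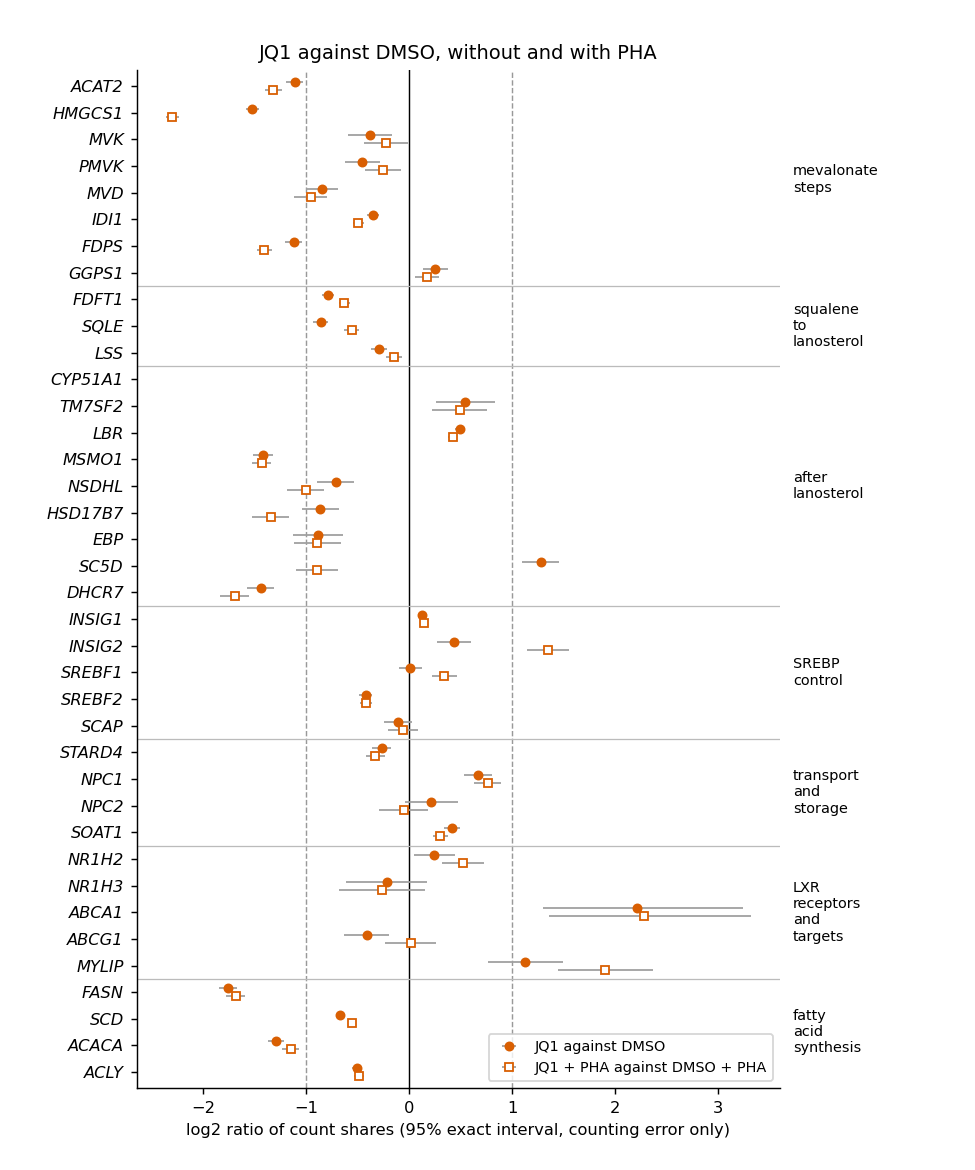
Log2 ratio of count shares with its 95% exact interval (x axis), JQ1 against DMSO (filled circles) and JQ1 + PHA against DMSO + PHA (open squares), for the 38 genes in pathway order, with dashed lines at 2-fold; CYP51A1 has too few counts for a ratio. Most enzymes from ACAT2 to DHCR7 lie left of 0 in both comparisons, GGPS1, TM7SF2 and LBR lie right of it, and SC5D lies on opposite sides.

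The mevalonate steps, which turn acetyl-CoA into the isoprenoid units of sterols, were lower in 7 of 8 genes in both JQ1 comparisons, and 3 of 8 were past 2-fold. HMGCS1 (chr5:43289395-43313512 in the deposited GRCh38 coordinates), which makes the HMG-CoA at the head of the pathway, was at 60.5 FPKM in the DMSO library, at 21.0 after JQ1, at 91.0 in DMSO + PHA and at 18.5 in JQ1 + PHA. Both JQ1 libraries were thus low and the library with PHA alone was the highest. The log2 ratio of its share of counts, given here and below with a 95% exact (Clopper-Pearson) interval that covers counting error only, was -1.53 (-1.59 to -1.46) without PHA. With PHA it was -2.30 (-2.36 to -2.24), the lowest ratio of the 34 genes that passed in the latter comparison. HMGCS1 was 2.88-fold lower by FPKM in the first comparison and 4.92-fold lower in the second.

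ACAT2 (chr6:159760328-159779055), the cytosolic thiolase of the first step, was at 38.9 and 45.4 FPKM in the DMSO and DMSO + PHA libraries and at 18 and 18.2 after JQ1 and JQ1 + PHA. The levels in both JQ1 libraries were nearly equal. Its log2 share ratio was -1.11 (-1.20 to -1.03) without PHA and -1.32 (-1.40 to -1.24) with it. ACAT2 overlaps SOD2 by 2202 bases in the deposited coordinates, and SOD2 had 438, 541, 371 and 502 counts in the DMSO, JQ1, DMSO + PHA and JQ1 + PHA libraries, higher with JQ1. It also overlaps TCP1 on the opposite strand by 558 bases, and TCP1 had 12552, 8685, 10483 and 8330 counts in the same order against 1687 to 4449 counts for ACAT2. Whether strand was used when reads were counted is not given in the sources used here, so reads in the shared bases may belong to any of these genes. In all, 16 of the 38 genes overlap a gene with more than 3 counts in a library, and for 10 of them the overlapping gene had at least 100.

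FDPS (chr1:155308748-155320666), which joins the isoprenoid units into farnesyl pyrophosphate, had 20.9 FPKM in DMSO, 9.61 in JQ1, 26.9 in DMSO + PHA and 10.1 in JQ1 + PHA. Its log2 share ratio was -1.12 (-1.20 to -1.04) without PHA and -1.41 (-1.48 to -1.33) with PHA. GGPS1, which takes farnesyl pyrophosphate away from sterols to make the longer lipid that anchors small GTPases, went the other way with 5.29, 6.31, 5.80 and 6.53 FPKM in the same order. The ratio of FDPS to GGPS1 within a library was 3.95 with DMSO and 4.63 with DMSO + PHA, and 1.52 and 1.55 in the JQ1 libraries. GGPS1 overlaps ARID4B on the opposite strand by 870 bases, and ARID4B had 1820, 4825, 2405 and 4541 counts, so it too was higher with JQ1.

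The kinases and the isomerase between these steps were lower by less. IDI1, the isomerase, had 59.8, 46.8, 70.9 and 50.3 FPKM in DMSO, JQ1, DMSO + PHA and JQ1 + PHA, and PMVK, the phosphomevalonate kinase, had 27.9, 20.3, 24.6 and 20.6. MVD, the decarboxylase of the mevalonate arm, was at 4.88 and 5.26 FPKM in the DMSO libraries and at 2.71 in both JQ1 libraries. MVK, mevalonate kinase, was the least abundant of the 8 with 1.86, 1.43, 1.70 and 1.45 FPKM, and the interval of its log2 share ratio with PHA nearly reached 0 (-0.44 to -0.01).

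From farnesyl pyrophosphate to lanosterol, all 3 enzymes were lower in both JQ1 comparisons and none passed 2-fold. SQLE, squalene epoxidase, a control point of the pathway, had 39.3 FPKM in DMSO, 21.7 in JQ1, 35.9 in DMSO + PHA and 24.4 in JQ1 + PHA. FDFT1, squalene synthase, had 21.5, 12.4, 22.2 and 14.3 FPKM. The log2 share ratio of SQLE was -0.86 (-0.93 to -0.79) without PHA and -0.56 (-0.63 to -0.49) with it, and that of FDFT1 was -0.79 (-0.85 to -0.73) and -0.63 (-0.68 to -0.58). LSS, which closes the sterol ring, was the least different of the 3 with 10.5, 8.54, 9.30 and 8.37 FPKM. The ratios of all 3 were thus closer to 0 with PHA. In the mevalonate steps those of ACAT2, HMGCS1, MVD, IDI1 and FDPS were farther from it, and those of MVK, PMVK and GGPS1 were closer. For MVD, MVK, PMVK and GGPS1 the interval of the difference between the ratios held 0.

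After lanosterol, 2 of the 7 genes that passed were past 2-fold lower with JQ1 alone and 3 of 7 with JQ1 + PHA. MSMO1 (chr4:165327623-165343160), a methyl sterol oxidase that acts after the demethylation of lanosterol by CYP51A1, had 33.3 FPKM in DMSO, 12.5 in JQ1, 39.5 in DMSO + PHA and 14.6 in JQ1 + PHA. DHCR7 (chr11:71428193-71452868), which makes cholesterol from its immediate precursor, had 11.95, 4.39, 12.4 and 3.83 FPKM. In both genes the JQ1 libraries were low whether or not PHA was present. The log2 share ratio of MSMO1 was -1.42 (-1.52 to -1.32) without PHA and -1.43 (-1.53 to -1.34) with it, and that of DHCR7 was -1.44 (-1.58 to -1.31) and -1.70 (-1.84 to -1.56). An antisense transcript over DHCR7, RP11-660L16.2, had 116, 17, 82 and 27 counts, also fewer with JQ1, and reads of DHCR7 and of this transcript cannot be told apart without strand.

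HSD17B7, a ketosterol reductase of the same arm, had 5.70, 3.14, 7.57 and 2.98 FPKM and passed 2-fold only with PHA present, where its log2 share ratio was -1.35 (-1.53 to -1.17) against -0.86 (-1.04 to -0.68) without PHA. The difference between these ratios was -0.48 (-0.73 to -0.24). Its pseudogene HSD17B7P2 had 100, 101, 134 and 85 counts against 360 to 968 for the gene, so reads split between the copies could matter here. NSDHL, a dehydrogenase of the same arm, had 13.0, 7.91, 14.5 and 7.24 FPKM and lay at the edge of the call with PHA, with a log2 ratio of FPKM of -0.996 and a log2 share ratio of -1.01 (-1.19 to -0.83). EBP, the sterol isomerase, was at 5.07 and 5.72 FPKM in the DMSO libraries and at 2.74 and 3.08 in the JQ1 libraries.

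LBR and TM7SF2, which encode sterol reductases for the same step, were higher with JQ1. LBR is also a protein of the inner nuclear membrane that binds lamin B. LBR had 42.3 FPKM in DMSO, 59.4 in JQ1, 43.0 in DMSO + PHA and 57.6 in JQ1 + PHA, and both JQ1 libraries lay above both DMSO libraries. Its log2 share ratio was 0.49 (0.45 to 0.54) without PHA and 0.42 (0.38 to 0.46) with it. TM7SF2 had 168, 256, 207 and 275 counts, with log2 share ratios of 0.54 (0.26 to 0.83) and 0.49 (0.22 to 0.76). The ratio of LBR to MSMO1 within a library was 1.27 with DMSO and 1.09 with DMSO + PHA, and it was 4.77 with JQ1 and 3.94 with JQ1 + PHA. CYP51A1, the demethylase of lanosterol, had 5, 1, 1 and 2 counts. LRRD1, with 10 to 33 counts, overlaps it by 30794 bases in the deposited coordinates, on the same strand, and CYP51A1 was left without a ratio. Whether reads in the shared bases were left out of the count of CYP51A1 was not tested, so its level is uncertain.

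SC5D (chr11:121292453-121308694), the desaturase just before DHCR7, did not follow the other enzymes. It had 1.71 FPKM in DMSO, 4.15 in JQ1, 2.70 in DMSO + PHA and 1.45 in JQ1 + PHA, from 362, 916, 596 and 303 counts. The library with JQ1 alone was the highest and the library with JQ1 + PHA was the lowest. The log2 share ratio was 1.27 (1.10 to 1.45) for JQ1 against DMSO and -0.90 (-1.10 to -0.69) for JQ1 + PHA against DMSO + PHA. The difference between these ratios was -2.17 (-2.44 to -1.90), and SC5D was the single gene of the 34 whose JQ1 ratio shifted by at least 1 with PHA, in the lower direction, as did 2.93% of all genes tested. No gene of the 34 shifted by as much in the higher direction, and 1.99% of all genes did. No other gene of the tables with more than 3 counts overlaps SC5D. The ratio of SC5D to DHCR7 within a library was 0.144 in DMSO, 0.944 in JQ1, 0.217 in DMSO + PHA and 0.378 in JQ1 + PHA.

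Added over the 20 sterol enzymes, FPKM were 405.1 in DMSO, 264.1 in JQ1, 465.3 in DMSO + PHA and 267.6 in JQ1 + PHA. The sums in both JQ1 libraries thus lay close together at 65.2% and 66.0% of the DMSO library. Against its own control, DMSO + PHA, the sum in JQ1 + PHA was 57.5%. The mevalonate steps made up most of the difference, at 220.0, 126.2, 271.6 and 128.5 FPKM, and the steps after lanosterol differed less, at 113.8, 95.3, 126.4 and 92.1 FPKM, with LBR counted among them. The genes that control SREBP differed little as a sum, at 92.8, 94.3, 90.2 and 94.5 FPKM.

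**Figure D3:**
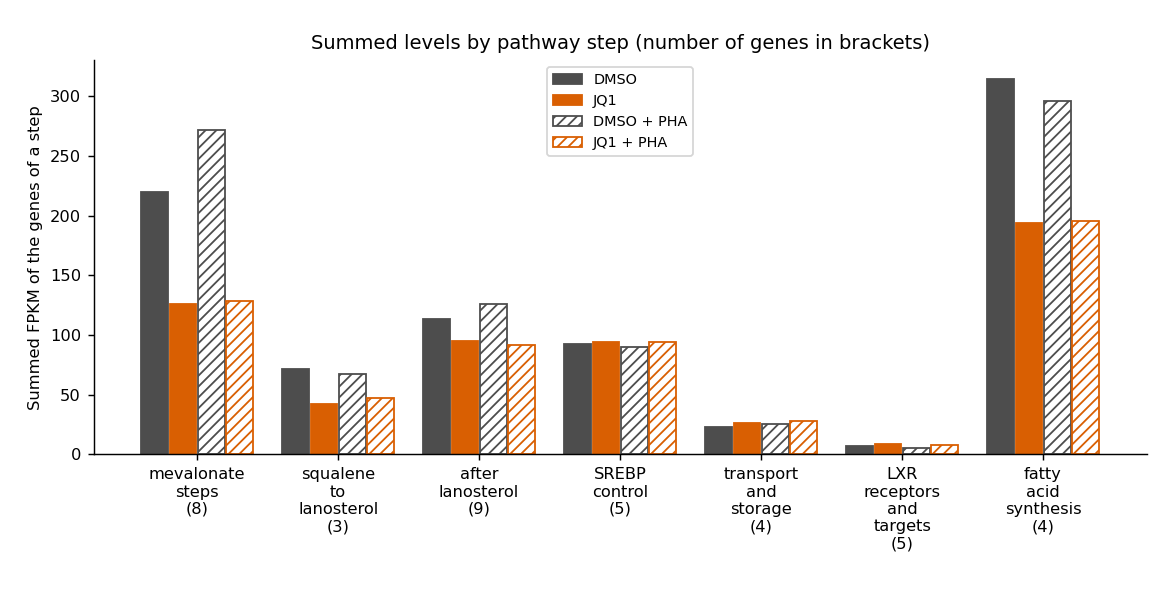
Summed FPKM (y axis, from 0) of the genes of each pathway step in the 4 libraries, 1 bar per library. In the mevalonate steps the bars of the JQ1 libraries, at 126.2 and 128.5, stand below those of DMSO at 220.0 and DMSO + PHA at 271.6, and in the SREBP control genes the 4 bars stand level.

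Among the genes that control SREBP, INSIG1 and INSIG2 stood apart from the enzymes. INSIG1, itself a target of SREBP and a retention factor of SCAP, had 62.6, 68.0, 61.2 and 67.4 FPKM in DMSO, JQ1, DMSO + PHA and JQ1 + PHA. Its log2 share ratio was 0.12 (0.08 to 0.16) without PHA and 0.14 (0.10 to 0.18) with PHA. It was the only gene of the sterol SREBP targets that passed, other than SC5D, to be above 0 with JQ1 alone. INSIG2 (chr2:118088452-118110997), its homolog, had 2.95 FPKM in DMSO, 3.99 in JQ1, 1.59 in DMSO + PHA and 4.05 in JQ1 + PHA. The levels in both JQ1 libraries were alike, and the library with PHA alone was low. The log2 share ratio of INSIG2 was 0.44 (0.27 to 0.60) without PHA and 1.34 (1.14 to 1.55) with PHA, where it passed 2-fold. PHA against DMSO gave -0.89 (-1.10 to -0.68), so part of the ratio with PHA lies in the lower level of its control library.

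SREBF2, which encodes the SREBP of the sterol genes, had 18.5, 13.8, 20.1 and 15.1 FPKM, a log2 share ratio of -0.42 in both comparisons (-0.49 to -0.36 and -0.48 to -0.36). SREBF1, which encodes the SREBP of fatty acid synthesis, had 4.19, 4.22, 3.30 and 4.17 FPKM. SREBF2 was thus the more abundant, 4.41 times SREBF1 with DMSO and 3.27 times with JQ1. SREBF1 overlaps RAI1 on the opposite strand, and RAI1 had 1100, 749, 1287 and 705 counts, in the opposite direction. SCAP had 4.58, 4.24, 3.96 and 3.80 FPKM, and the intervals of its JQ1 ratios held 0.

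The genes of cholesterol transport and storage were mostly higher or near equal, and none of the 4 passed 2-fold in either JQ1 comparison. NPC1, which moves cholesterol out of lysosomes, was the most different with 2.67, 4.24, 2.93 and 4.95 FPKM, a log2 share ratio of 0.67 (0.53 to 0.80) without PHA and 0.76 (0.63 to 0.89) with it. NPC1 and C18orf8 overlap by 25624 bases on opposite strands, and C18orf8 had 899, 1259, 1145 and 1115 counts. SOAT1, which esterifies cholesterol for storage, had 9.81, 13.1, 11.1 and 13.6 FPKM. NPC2, the partner of NPC1 in the lysosome, had 2.45, 2.84, 2.96 and 2.85 FPKM, and both intervals of its JQ1 ratios held 0. STARD4, a carrier that is also a target of SREBP, had 7.67, 6.38, 8.58 and 6.83 FPKM and was lower in both JQ1 comparisons, at -0.27 (-0.36 to -0.17) and -0.33 (-0.42 to -0.24). Its antisense gene STARD4-AS1, which overlaps it by 365 bases, had 42, 5, 33 and 2 counts.

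Of the LXR targets, MYLIP and ABCA1 were higher with JQ1 and ABCG1 was not. MYLIP (chr6:16129125-16148248) had 1.40 FPKM in DMSO, 3.06 in JQ1, 0.76 in DMSO + PHA and 2.81 in JQ1 + PHA, from 92, 210, 52 and 183 counts. Both JQ1 libraries lay above both DMSO libraries. Its log2 share ratio was 1.13 (0.77 to 1.5) without PHA and 1.90 (1.44 to 2.37) with it, and by FPKM it was 2.18-fold and 3.72-fold higher. ABCA1, the pump that loads cholesterol on to apolipoprotein, had 12, 58, 12 and 55 counts, so it was far below the filter in every library. Its log2 share ratio was 2.21 (1.30 to 3.24) without PHA and 2.28 (1.36 to 3.31) with PHA. ABCG1, the other export pump, had 2.80, 2.1, 1.94 and 1.96 FPKM, a log2 share ratio of -0.42 (-0.63 to -0.20) without PHA and 0.01 (-0.23 to 0.26) with it. The highest library of ABCG1 was thus DMSO alone, and the other 3 were close together.

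The receptors themselves were low. NR1H2, the LXR found in most tissues, had 2.32, 2.74, 2.06 and 2.95 FPKM, and NR1H3, the LXR of liver and macrophages, had 118, 106, 113 and 89 counts and did not pass the filter. The intervals of both JQ1 ratios of NR1H3 held 0.

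Set against each other, the 20 sterol targets of SREBP, of which 18 passed, had a median log2 ratio of FPKM of -0.80 with JQ1 alone and -0.86 with JQ1 + PHA. The 4 LXR targets, of which SREBF1, ABCG1 and MYLIP passed, had medians of 0.01 and 0.33. The difference between the medians of both lists was -0.81 with JQ1 alone and -1.19 with JQ1 + PHA. These values rest on the filter that left ABCA1 out, as without it the LXR medians were 0.54 and 0.77 and the differences -1.29 and -1.51. Over all genes tested the medians were -0.01 and -0.02. Of the SREBP targets that passed, 16 of 18 were below 0 with JQ1 alone, with INSIG1 and SC5D above, and 17 of 18 with JQ1 + PHA, with INSIG1 above. Of the LXR targets, 2 of 3 and 3 of 3 were above 0, though ABCG1 at 0.01 and SREBF1 at 0.01 were each so in 1 of the comparisons by a margin within counting error. With 3 genes, the median of the LXR targets in both JQ1 comparisons is the value of SREBF1. SREBF1, FASN and SCD answer to both SREBP and LXR, and of these only SREBF1 was counted, under LXR. In the JQ1 comparisons the log2 ratios of FPKM were -1.74 and -1.67 for FASN and -0.67 and -0.55 for SCD. The LXR medians, and their difference from the SREBP targets, thus depend on which of these genes are counted.

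**Figure D4:**
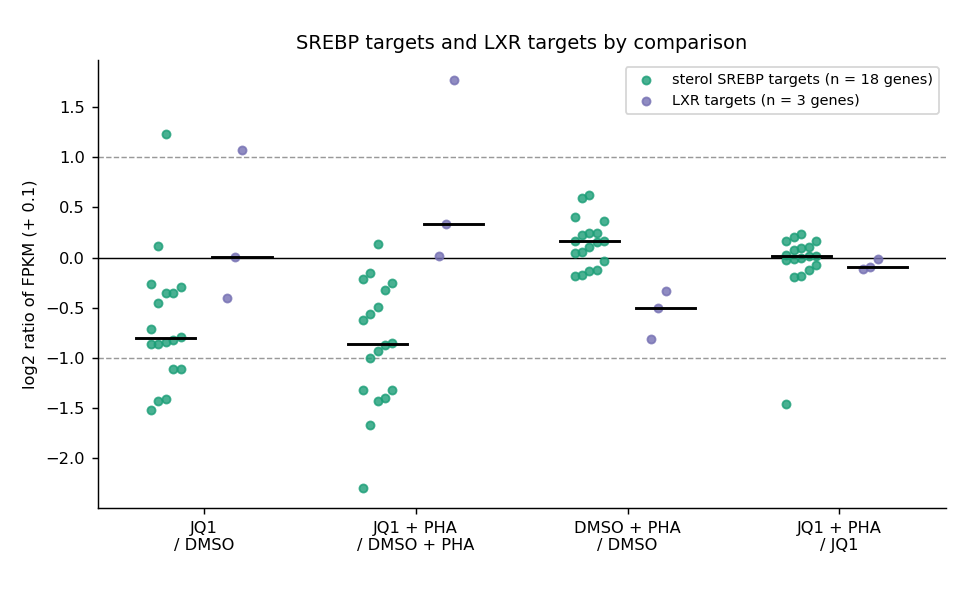
Log2 ratio of FPKM with 0.1 added (y axis) of the 18 sterol SREBP targets (green) and the 3 LXR targets (purple) that passed the filter, for the 4 comparisons, with 1 point per gene and the median as a black bar. The green medians lie at -0.80 and -0.86 in the JQ1 comparisons and at 0.16 and 0.02 in the PHA comparisons, and the lone green point above 1 in the first column and below -1 in the last is SC5D.

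Of fatty acid synthesis, which SREBP also drives, 4 genes were chosen as members. All 4 were lower in both JQ1 comparisons, and FASN and ACACA passed 2-fold in both. The further fatty acid genes described below were not lower as a set. FASN (chr17:82078333-82098332), fatty acid synthase, had 18.6 FPKM in DMSO, 5.48 in JQ1, 17.4 in DMSO + PHA and 5.41 in JQ1 + PHA. ACACA (chr17:37084988-37406818), the carboxylase that feeds it, had 9.77, 3.99, 8.50 and 3.83 FPKM. In each gene the JQ1 libraries were alike and below both DMSO libraries. The log2 share ratio of FASN was -1.76 (-1.85 to -1.67) without PHA, the lowest of the 34 genes in that comparison, and -1.68 (-1.78 to -1.59) with PHA. That of ACACA was -1.29 (-1.37 to -1.21) and -1.15 (-1.23 to -1.07).

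SCD had 236.2, 148.7, 219.8 and 150.0 FPKM in DMSO, JQ1, DMSO + PHA and JQ1 + PHA, and ACLY, which makes acetyl-CoA for both sterols and fatty acids, had 50.2, 35.4, 50.8 and 36.3. Neither passed 2-fold. Their large counts, at least 14976 for SCD and 6150 for ACLY in each library, gave narrow intervals, -0.70 to -0.64 for SCD and -0.55 to -0.46 for ACLY without PHA.

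The second question was what PHA did to these genes, with and without JQ1. With DMSO, none of the 34 genes passed 2-fold in either direction, where 2.1% of all genes tested were higher and 1.19% lower. Of the 18 sterol enzymes that passed, 14 were above 0, among them 7 of 7 after lanosterol, with a median log2 ratio of 0.15. By the log2 ratio of FPKM the highest were SC5D at 0.62, HMGCS1 at 0.59 and HSD17B7 at 0.40, and FDPS was at 0.36. The LXR targets were below 0 in 3 of 3, with MYLIP at -0.81, ABCG1 at -0.51 and SREBF1 at -0.34. INSIG2 was the lowest of the 34 at -0.85. This comparison shares its DMSO library with JQ1 against DMSO and its DMSO + PHA library with JQ1 + PHA against DMSO + PHA, so its values are not independent of those above.

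With JQ1 present, PHA was compared in the same way. Of the 34, none was 2-fold higher (1.04% of all genes were) and SC5D alone was 2-fold lower (1.03% of all genes were), with a log2 share ratio of -1.52 (-1.71 to -1.33) and a mean of 2.50 FPKM, so that this call ended when a mean of 5 FPKM was required. Without SC5D, the log2 ratios of FPKM of the sterol enzymes that passed lay between -0.19 for DHCR7 and 0.23 for MSMO1. HMGCS1, which was the enzyme other than SC5D with the largest PHA ratio in DMSO, thus went from 0.59 without JQ1 to -0.18 with it, and the difference between its JQ1 ratios was -0.77 (-0.86 to -0.69). For INSIG2 and MYLIP the same difference was 0.91 (0.65 to 1.17) and 0.77 (0.20 to 1.34). That of MSMO1 was -0.01 (-0.15 to 0.12) and that of SREBF2 was 0.00 (-0.09 to 0.09).

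**Figure D5:**
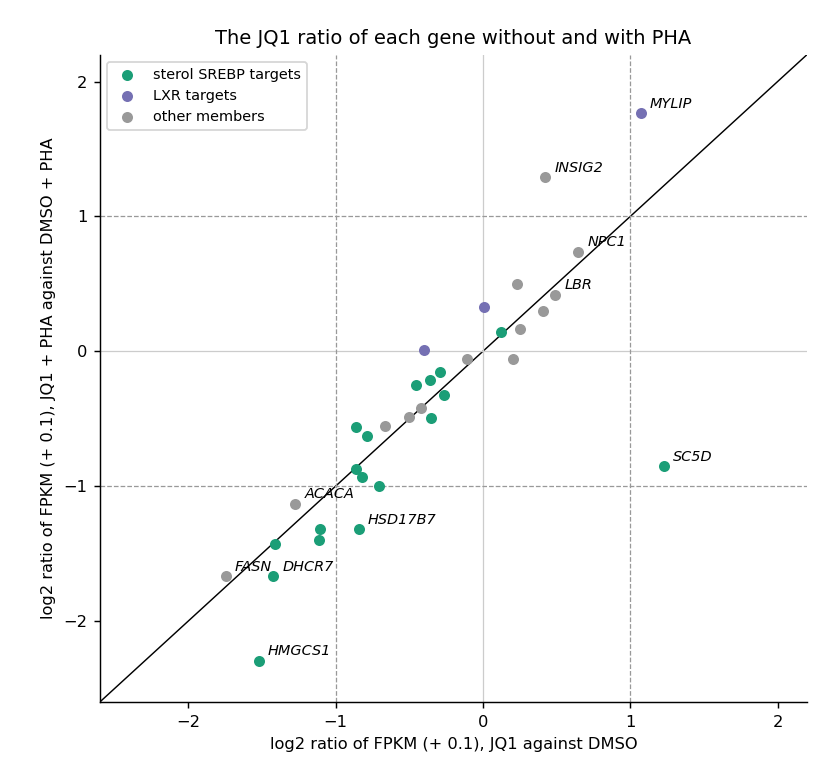
Log2 ratio of FPKM with 0.1 added for JQ1 against DMSO (x axis) and for JQ1 + PHA against DMSO + PHA (y axis) of the 34 genes that passed, 1 point per gene, with the line of equality and dashed lines at 2-fold. Most points lie near the line, HMGCS1 and HSD17B7 lie below it, INSIG2 and MYLIP lie above it, and SC5D is far to the lower right.

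Other genes of the pathway were taken from a list of 60, of which 58 were found and 47 passed. With JQ1 alone, 1 of the 47 was 2-fold higher (2.13%, beside 5.22% of all genes) and 2 were lower (4.26%, beside 8.65%). With JQ1 + PHA none was higher (0%, beside 3.69%) and 3 were lower (6.38%, beside 8.0%). Each share of the 47 was thus below that of all genes tested. ELOVL6, which lengthens the product of FASN, was lower in both JQ1 comparisons. It had 2.86, 0.52, 2.87 and 0.45 FPKM in the DMSO, JQ1, DMSO + PHA and JQ1 + PHA libraries. TMEM97, a known SREBP target that binds NPC1, had 8.14, 4.58, 16.7 and 4.67 FPKM. It thus was 2.05-fold higher with PHA in DMSO, and 3.57-fold lower with JQ1 + PHA than with DMSO + PHA. C14orf1, the older symbol of a scaffold protein of the sterol demethylation enzymes, had 16.9, 9.57, 20.1 and 9.73 FPKM and passed 2-fold with PHA present.

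PDSS1, which starts the side chain of coenzyme Q from isoprenoid units, had 16.8, 8.10, 12.9 and 9.26 FPKM and passed 2-fold with JQ1 alone. ACSL1, which activates fatty acids, was the gene that was higher, with 1.65, 3.41, 1.96 and 2.55 FPKM. Of the 8 genes that passed among the proteases, ligases and partners of SREBP processing, none was past 2-fold in either JQ1 comparison, and their medians were 0.08 and 0.14. The same held for 8 genes of sterol transport and hydrolysis, with medians of -0.07 and -0.18, and for 5 LXR partners and further targets, with medians of 0.31 and 0.24. The 11 further fatty acid genes that passed, ELOVL6 and ACSL1 among them, had medians of 0.23 and 0.13. With JQ1 alone 6 of the 11 were above 0 and 5 below, and with JQ1 + PHA 7 were above and 4 below. None of the 4 genes of sterol oxidation passed the filter. Below the filter, and chosen here after their values were seen, RXRA, the partner with which LXR binds DNA, had 269, 81, 282 and 106 counts. Its log2 share ratios were -1.80 (-2.17 to -1.43) and -1.33 (-1.67 to -1.0). CYP46A1, which oxidises cholesterol in neurons, had 84, 324, 108 and 310 counts and log2 share ratios of 1.88 (1.53 to 2.25) and 1.6 (1.28 to 1.93). SOAT2, the homolog of SOAT1, had 30, 8, 11 and 1 counts.

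Returning to the promoters, of the 7 genes lower in both JQ1 comparisons 5 had a window, and 4 of these held at least 2 CCAAT boxes, namely HMGCS1, FDPS, MSMO1 and DHCR7, while ACACA held none. Of the other 27 genes that passed, 24 had a window and 10 of these held at least 2. Among them were MVK and NSDHL with 5 boxes each, whose log2 share ratios with JQ1 alone were -0.38 and -0.71, and MYLIP with 2, which was higher. GGPS1 and LBR, which were higher, held none, and neither did PMVK or IDI1, which were lower. The window of IDI1 lies 7485 bases outside the deposited gene and that of GGPS1 lies 85 bases outside. The window of DHCR7 is built on a start 4475 bases inside the deposited gene. These counts describe the windows and were not tested.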

How the data were processed

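Total RNA of Jurkat cells was sequenced in 4 libraries, 1 per condition, and grouped by the submitters' treatment labels. Reads had been aligned to GRCh38 with Hisat2 2.0.4 by the authors' methods. The submitters' processing notes also name TopHat2 2.0.9 and Cufflinks 2.1.1. The counting program, its annotation and its use of strand are not given in the sources used here, and the names given for the library kit differ between sources. The authors deposited a read count per gene, without normalization, and FPKM, which were checked to be the count divided by a gene length and the library total.

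A mean of 1 FPKM or more was required, which 11503 genes had, and for these log2 ratios of FPKM with 0.1 added were computed, and genes past 2-fold were counted as called. For single genes, ratios of count shares were given 95% exact (Clopper-Pearson) intervals, which cover counting error only, and no test between conditions was made with 1 library per condition. The deposited gene coordinates were used as given, also for overlaps, with strands from GENCODE release 44, and promoter windows were RefSeq's (GRCh38.p14). The members, the lists and the genes named were chosen with earlier results of these data known. All 38 members are named in pathway order, and of the other pathway genes those past 2-fold in either JQ1 comparison. Motifs were searched on both strands. The fold rule and the intervals were tested on simulated pairs of libraries with planted 4-fold changes and counting noise only. Other steps were not simulated. Alternatives were the pseudocount, the filter, the fold threshold and the scaling (median centring, a common FPKM total, edgeR's TMM and DESeq2's size factors). Count shares with no pseudocount were added after seeing the data. Scaling factors came from edgeR 4.0.16 and DESeq2 1.42.0 in R 4.3.3. Everything else was run in Python 3.11.15 using pandas 2.3.3, numpy 2.4.6 and scipy 1.17.1, with figures by matplotlib 3.10.9. Pathway genes outside the lists were not analysed here.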

Additional observations from a re-analysis of the deposited data

Results flagged for a closer look

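SC5D was singled out because its JQ1 difference had opposite directions without and with PHA. Its log2 ratio of count shares was 1.27 for JQ1 against DMSO and -0.90 for JQ1 + PHA against DMSO + PHA, and it was 0.65 for DMSO + PHA against DMSO and -1.52 for JQ1 + PHA against JQ1. The difference between these effects was not tested, as no condition has a second library. No replicate bears on whether the library with JQ1 alone or that with JQ1 + PHA stands apart for this gene.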

How the results depend on the processing

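No log2 ratio called past 2-fold changed sign under any alternative, and 11 of 1295 recomputed ratios of single genes did, all with a size of at most 0.05. With a pseudocount of 1, genes called higher went from 2 to 0 with JQ1 alone and to 1 with JQ1 + PHA, the SREBP target medians were -0.68 and -0.66, and their difference from the LXR targets with PHA was -0.93. With a mean of at least 5 FPKM, higher calls were 0 in both JQ1 comparisons, lower calls were 0 for JQ1 + PHA against JQ1 and for the change with PHA, as SC5D left the set, and the SREBP target median with PHA was -0.63. No LXR target was left under that filter, so it gave no value for them. Without a filter, ABCA1 entered the LXR targets, whose medians were 0.54 and 0.77. The SREBP target median with PHA was -0.74, and the differences between the lists were -1.29 and -1.51. At 1.5-fold, 14 genes were lower with JQ1 alone and 13 with JQ1 + PHA, and NPC1 joined the genes called higher in both comparisons. With DMSO + PHA against DMSO, 2 were higher and 2 lower, and 2 JQ1 ratios were higher and 2 lower with PHA than without. The share of all genes past 1.5-fold was not computed, so these counts cannot be set against a background. The scaling alternatives moved the ratios of all genes by at most 0.07 and left the counts of calls within 1.5 times. No paired analysis was possible because the conditions share no more than 1 replicate number.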
